A study of Mus musculus with 157 samples.

Results

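The T cell receptor beta variable segments (Trbv) were taken as all genes of the count tables whose symbol is Trbv followed by a digit, which gave 35 of 50686 genes. For each of 157 libraries of mouse thymocytes, thymus and thymic lymphoma, the share of each segment in the library's Trbv counts was computed, and 152 libraries had the required 100 or more Trbv counts. The last libraries inside this limit had 110 and 145 Trbv counts, and the 5 outside it had 56, 54, 35, 19 and 15.

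Thymocyte libraries were labelled DN1, DN2, DN3, DN4 (double-negative stages, without CD4 and CD8) or DP (double-positive for CD4 and CD8), with genotype RERT2-Cdc20(+/D) or RERT2-Cdc20(D/AAA), here called +/D and D/AAA. Both genotypes carry the D allele, so +/D is the reference and not a wild type, and the labels do not say what D denotes. The AAA form of Cdc20, an activator of the anaphase-promoting complex, is known as a form that the spindle checkpoint protein Mad2 does not bind. RERT2 is known as a tamoxifen-inducible Cre line that is active in most tissues, and the RERT2 prefix is shared by all sorted and whole-thymus groups. Early tumours, all D/AAA, carried no stage label (7 used), which by the protocol means that they were not sorted, or were labelled DP (5 used). Whole thymus was +/D (6), D/AAA (9), +/D;MYCChr6 (2) or D/AAA;MYCChr6 (3). Later tumours were RERT2-Cdc20(D/AAA) (19 used of 22), the same with p53(+/D) (9 used), the same with MYCChr6 (3), LCK-Cdc20(D/AAA);MYCChr6 (14), LCK-Cdc20(+/D);MYCChr6 (4), CD4-Cdc20(D/AAA);MYCChr6 (2) and p53(-/-) (1). LCK and CD4 are promoters active in thymocytes. The labels name neither ages, treatments nor animals, so a p-value here speaks of the spread between libraries, which may be in part technical.

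Each developing T cell assembles 1 beta chain gene by joining a V segment to a D and a J segment, cut by the Rag1 and Rag2 proteins and closed by end joining. The joined exon is spliced to 1 of 2 constant genes, Trbc1 or Trbc2, and the chain is first tested at the DN3 stage in a receptor with pre-T alpha (Ptcra). The descendants of 1 cell share the rearrangement, so the spread of V segments in a population is a common measure of its clonal diversity.

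The 35 segments lie on chromosome 6 (GRCm38, GENCODE M21 positions), 34 of them on the plus strand from Trbv1 (chr6:40891229-40891885) onwards. Trbv31 (chr6:41557691-41558452) lies on the minus strand beyond Trbc2. By annotation 22 are functional V genes and 13 are pseudogenes. Pseudogenes took 0.591% of the Trbv counts in the earlier run of sorted cells and early tumours and 0.385% in the later run of thymus and tumours. Trbv27 and Trbv28, both pseudogenes, had no count in either run.

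The 3′ ends of 9 functional segments are shown because these segments lead the libraries described below and because the ends enter the CDR3, the most variable loop of the chain. Each line gives the last 45 bases of the GENCODE M21 transcript, 5′ to 3′ on the segment's own strand, and the capitals mark the stretch from the conserved cysteine codon to the segment's end.
Trbv13-2: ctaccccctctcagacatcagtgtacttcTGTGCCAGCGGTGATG
Trbv13-1: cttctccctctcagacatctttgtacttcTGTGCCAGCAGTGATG
Trbv13-3: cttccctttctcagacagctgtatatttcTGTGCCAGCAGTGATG
Trbv12-1: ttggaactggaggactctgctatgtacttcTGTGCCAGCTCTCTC
Trbv12-2: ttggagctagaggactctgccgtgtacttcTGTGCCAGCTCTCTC
Trbv16: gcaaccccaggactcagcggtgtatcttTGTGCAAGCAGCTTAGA
Trbv19: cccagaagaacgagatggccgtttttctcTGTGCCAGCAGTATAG
Trbv4: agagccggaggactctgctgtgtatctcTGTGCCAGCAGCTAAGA
Trbv31: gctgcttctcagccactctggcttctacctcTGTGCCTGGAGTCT

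Trbv13-1 and Trbv13-3 end in the same 16 bases, and so do Trbv12-1 and Trbv12-2 in their last 15. Over aligned transcripts, Trbv13-2 and Trbv13-3 were 90.6% identical, Trbv13-1 and Trbv13-2 88.7%, and Trbv12-1 and Trbv12-2 88.3%, against a median of 60.9% over 231 pairs of functional segments. Reads from these close copies can be split between them by the authors' counting, so single values within the Trbv12 and Trbv13 families are uncertain. The 4 lie next to each other: Trbv12-1 (chr6:41113550-41114067), Trbv13-1 (chr6:41116007-41116468), Trbv12-2 (chr6:41118851-41119364) and Trbv13-2 (chr6:41121396-41121832), followed by Trbv13-3 (chr6:41130147-41130585). Trbv4 (chr6:41059394-41059886) lies before them, and Trbv16 (chr6:41151740-41152230) and Trbv19 (chr6:41178375-41179048) after them.

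Library totals were 21199 in 1 DN1 library and 2701382 to 11595463 in the other 80 of the earlier run, and 1708619 to 8009572 in the later run. Used libraries held 503 to 23914 Trbv counts in the earlier run and 110 to 5138 in the later run. The 95% exact binomial interval of the leading share was at most 6.80 percentage points wide in the earlier run and 16.2 in the later run, for counting error only. All tests stayed within a run. In the later run the gene with the most counts took 40.4% of a library on average, against 0.745% in the earlier run. Dividing counts by transcript length left the leading segment the same in 147 of 152 libraries.

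**Figure D1:**
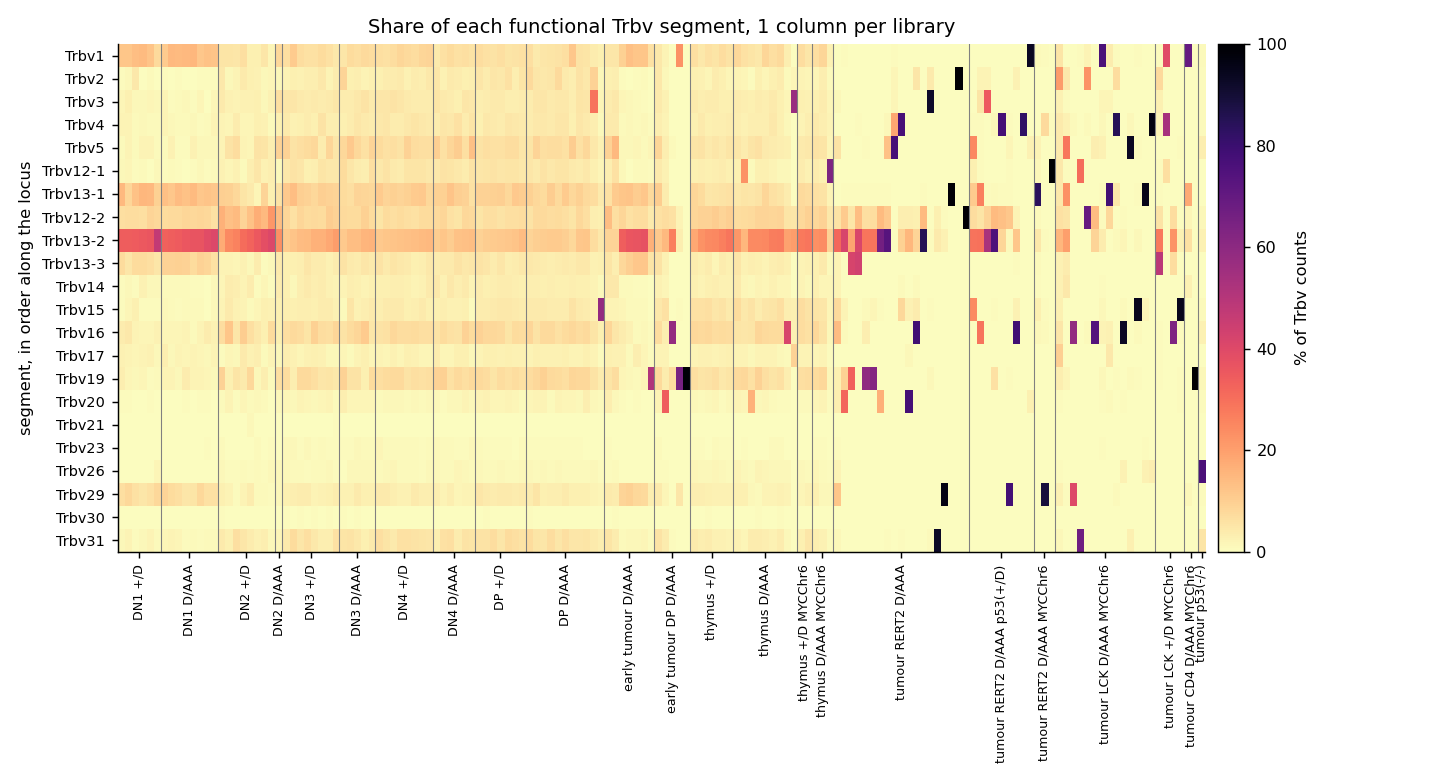
Share of each of the 22 functional Trbv segments (rows, in order along the locus) in the Trbv counts of each library (columns, grouped by tissue and genotype, colour from 0 to 100%). Sorted stages and +/D thymus share a pattern with Trbv13-2 on top, whereas most later tumours show 1 dark cell at a different row.

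In +/D thymocytes Trbv13-2 was the most counted segment in most libraries of every stage, and its mean share was lower at each stage from DN1 to DP. It led all 6 DN1, all 8 DN2 and all 8 DN4 libraries, 6 of 8 DN3 libraries (Trbv13-1 led the other 2) and 6 of 7 DP libraries (Trbv16 led 1). Its mean share was 36.9% ± 5.00 (SD, n = 6) in DN1, 30.6% ± 7.70 (n = 8) in DN2, 15.4% ± 3.21 (n = 8) in DN3, 12.99% ± 1.24 (n = 8) in DN4 and 11.3% ± 1.42 (n = 7) in DP. The effective number of segments, the reciprocal of the Simpson concentration, had medians of 5.67 in DN1, 7.31 in DN2, 13.7 in DN3, 14.8 in DN4 and 16.1 in DP.

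The leading share, whichever segment led, ran from 34.0% over a median of 34.9% to 47.0% in DN1. In DN2 it ran from 17.3% over 31.6% to 40.4%, and in DN3 from 11.04% over 15.3% to 20.6%. The 8 DN3 libraries overlap the 8 DN2 libraries only at the low end of DN2. The mean fell by 15.1 percentage points from DN2 to DN3 (exact permutation test, 2-sided, p = 0.000466, adjusted p = 0.0028 by Benjamini-Hochberg over 18 comparisons). The neighbouring steps did not pass after adjustment: the DN2 mean minus the DN1 mean was -6.26 points (exact permutation test, adjusted p = 0.249), DN4 minus DN3 was -2.55 points (adjusted p = 0.124) and DP minus DN4 was -1.70 points (adjusted p = 0.104).

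Behind Trbv13-2, the DN1 libraries held Trbv13-1 at a mean of 12.5% ± 2.84 (SD, n = 6), Trbv1 at 11.9% ± 2.31, Trbv29 at 6.53% ± 1.25 and Trbv13-3 at 6.34% ± 1.16. In DN2 the second segment was Trbv12-2 at 14.8% ± 3.74 (n = 8), followed by Trbv16 at 6.80%. The order after Trbv13-2 thus changed between these stages. In DN3, DN4 and DP the second was Trbv13-1, at 9.94%, 9.74% and 9.70%, with Trbv16, Trbv1, Trbv5, Trbv12-2 and Trbv19 between 6.28% and 8.06% where they were among the first 5. Per transcript base the order held for Trbv13-2, which took 39.7% ± 4.91 of the length-scaled counts in DN1, 17.4% ± 3.56 in DN3 and 12.9% ± 1.60 in DP.

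DN1-labelled libraries also carried markers of other cells. The summed level of 6 NK and NKT markers (Nkg7, Klrb1c, Zbtb16, Tbx21, Ncr1, Il2rb) had a median of 4771 CPM (normalised read count, scaled by trimmed means) in +/D DN1, against 271 in DN2, 81.6 in DN3, 154 in DN4 and 6.94 in DP. No member of that list was at 0 in every DN1 library. The median of 5 B cell markers was 1319 CPM in DN1 and 109 in DN2, and that of 6 gamma delta T cell markers was 1271 in DN1 and 3975 in DN2. The 4 early progenitor markers (Kit, Cd44, Il7r, Flt3) summed to a median of 738 CPM in DN1 (655 to 765) and 128 in DN2 (96.9 to 186). Within that list Kit was lower in DN1 (11.6 CPM ± 7.85, SD) than in DN2 (64.4 ± 24.8), and Cd44 was at 201 ± 25.1 and 6.56 ± 3.92 CPM. The leading alpha variable segment (Trav) took a median of 61.9% of the Trav counts in +/D DN1 (38.3% to 68.4%). Its medians were 24.1% in DN2, 21.3% in DN3, 8.91% in DN4 and 2.89% in DP. These lists and the alpha share move with the DN1 shares, and their part in the result was not tested.

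The total of all Trbv transcripts differed between neighbouring sorted stages of +/D cells. It ran at a mean of 583 CPM ± 71.6 (SD, n = 6) in DN1, 150.5 ± 24.99 (n = 8) in DN2, 448 ± 98.0 (n = 8) in DN3, 943 ± 184 (n = 8) in DN4 and 1868 ± 270 (n = 7) in DP. The log2 difference was -1.95 from DN1 to DN2 (exact permutation test, 2-sided, adjusted p = 0.0024), 1.55 from DN2 to DN3 (adjusted p = 0.0014), 1.08 from DN3 to DN4 (adjusted p = 0.0014) and 0.998 from DN4 to DP (adjusted p = 0.0015), all on log2 of CPM plus 1. Neighbouring stages did not overlap in any of the 4 steps. In bulk libraries, fewer cells with a joined gene, less RNA per cell and another mix of cells cannot be told apart. The part of the NK, NKT and B cell markers of the DN1 libraries in the DN1 level was not tested.

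**Figure D2:**
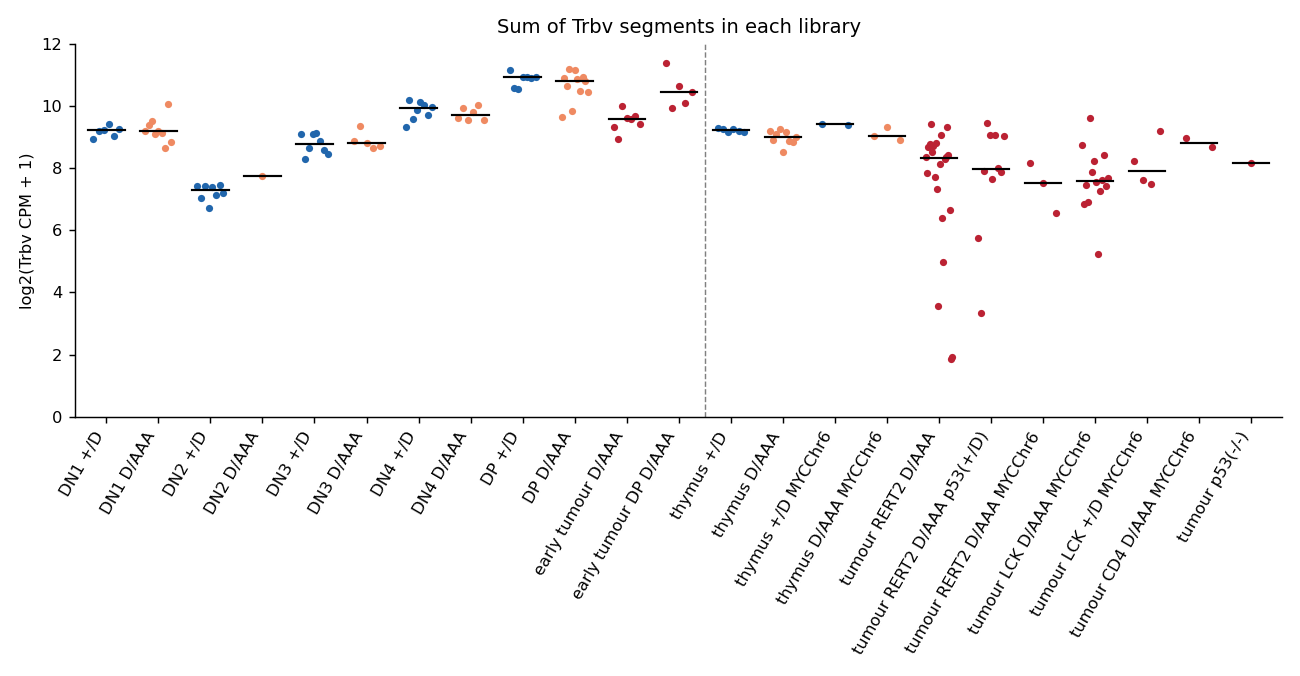
Summed Trbv level, as log2 of CPM plus 1, of each library by group, with points for libraries (+/D blue, D/AAA orange, tumours red) and bars for medians, and a dashed line between the runs. Among sorted +/D cells DN2 is lowest and DP highest, and the later tumours spread from far below the thymus libraries to 787 CPM in 1 LCK D/AAA;MYCChr6 tumour, above the highest thymus library at 687 CPM.

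Trbv counts per 100 counts of the constant genes set this level against transcripts that need no joined V segment. The medians were 28.0 in DN1, 3.59 in DN2, 12.3 in DN3, 17.8 in DN4 and 19.8 in DP. DN2 was therefore low in V segments relative to its own Trbc1 and Trbc2, whose means rose from 825 and 1195 CPM in DN1 to 1836 and 2181.8 CPM in DN2. Germline Trbc transcripts are known in early thymocytes, and Trbc1 and Trbc2 are themselves near-identical copies.

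From DN1 to DN2 Trbv13-2, which led every DN1 library, fell less than Trbv13-1, Trbv1, Trbv29 and Trbv13-3. Trbv13-2 ran from 175 over a median of 209 to 277 CPM in DN1 and from 22.6 over 47.2 to 56.3 CPM in DN2 (log2 fold change -2.25 ± 0.18 SE, adjusted p = 7.6e-09, edgeR quasi-likelihood test). Trbv13-3 ran from 28.7 over 34.3 to 49.8 CPM in DN1 and from 0.809 over 2.96 to 5.03 CPM in DN2 (log2 -3.70 ± 0.35, adjusted p = 7.7e-08). Trbv12-2 ran from 33.5 over 42.0 to 46.8 CPM in DN1 and from 15.2 over 21.9 to 24.3 CPM in DN2 (log2 -0.98 ± 0.17). None of these 3 segments overlapped between the stages, and Trbv12-2 fell least of them. Trbv29 fell by 3.75 ± 0.40, Trbv1 by 3.40 ± 0.32 and Trbv13-1 by 2.94 ± 0.36 on the log2 scale. In all, 9 of 20 segments that passed the filter on low counts were called lower and 0 higher. Over all 13189 genes tested 25.7% were called lower, and the median log2 fold change was -1.01 over the tested segments and -0.01 over all genes.

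**Figure D3:**
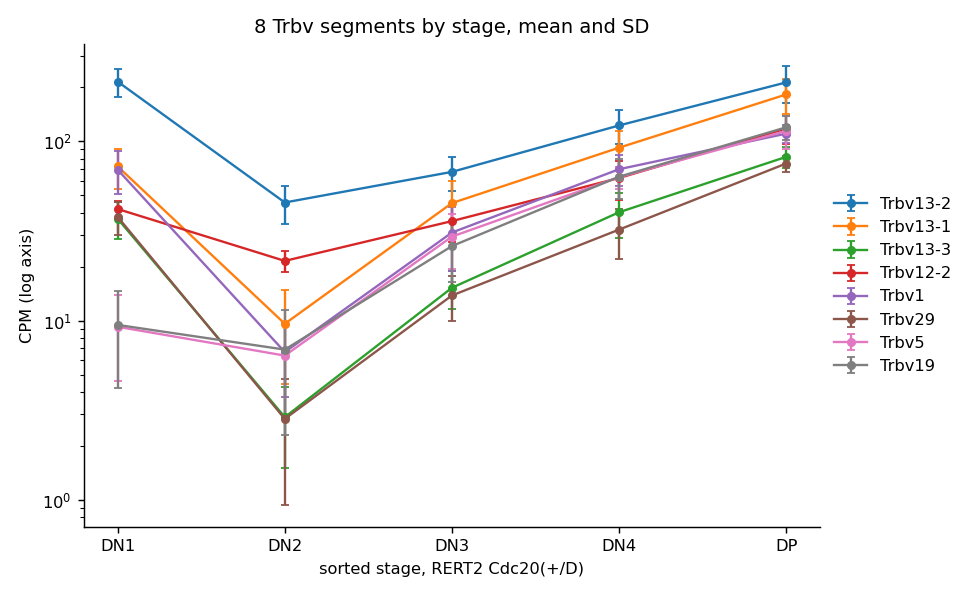
Level of 8 Trbv segments (CPM, log axis) in sorted +/D DN1, DN2, DN3, DN4 and DP cells, with points for means and bars for SD. Trbv13-2 is highest at each stage, and every line has its lowest point at DN2.

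From DN2 to DN3 the pattern was the reverse in breadth: 19 of 21 tested segments were called higher, where 1.11% of all genes were. The 2 others were Trbv13-2, which ran from 44.9 over 65.0 to 91.1 CPM in DN3 (log2 0.58 ± 0.17, adjusted p = 0.0693), and the pseudogene Trbv24 (log2 0.97, adjusted p = 0.324). Trbv13-3 ran from 8.30 over 15.3 to 20.7 CPM in DN3 (log2 2.41 ± 0.34, adjusted p = 8.6e-05), without overlap with DN2. Trbv23 rose by 2.92 ± 0.66, Trbv12-1 by 2.35 ± 0.31, Trbv3 by 2.32 ± 0.26 and Trbv12-2 by 0.75 ± 0.17 on the log2 scale. The median was 2.04 over the tested segments and 0.01 over all genes. A segment can pass the filter through the stage where it is high, so these counts describe the tested segments and not all 35.

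At the later steps nearly every tested segment rose again. From DN3 to DN4, 19 of 22 tested segments were called higher, where 7.85% of all genes were, with a median log2 of 1.08 against 0.01. From DN4 to DP, 21 of 22 were called higher, where 28.7% of all genes were, with a median of 1.13 against 0.06. Trbv13-2 rose less than these medians at both steps, by 0.79 and 0.87, and reached 141 to 279 CPM in DP with a median of 216. Trbv13-3 reached 68.6 to 98.1 CPM in DP with a median of 85.1. Neighbouring comparisons share the stage between them, so they are not independent of each other.

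The other genes of the pathway fell into 3 lists. Of 10 recombination genes, 7 were called higher in DN2 than in DN1 (24.1% of all genes were). Rag1 was at 0.499 CPM ± 0.589 (SD, n = 6) in DN1 and 48.1 ± 26.7 (n = 8) in DN2, and Dntt, which adds untemplated bases at the joints, at 17.8 ± 18.8 and 2034 ± 299 CPM. From DN4 to DP, 8 of the 10 were called higher (28.7% of all genes were) and 1 lower (26.3% of all genes were called lower). Of 6 receptor genes, Ptcra rose by 7.05 ± 0.79 and Trac, the alpha constant gene, fell by 8.24 ± 0.32 on the log2 scale from DN1 to DN2. Of 18 beta constant, diversity and joining genes, 14 were tested from DN1 to DN2 and 6 called higher (24.1% of all genes were). From DN2 to DN3, 2 of 15 tested were called lower (2.52% of all genes were). From DN3 to DN4, 2 of 15 tested were called higher (7.85% of all genes were), and from DN4 to DP 15 of 16 (28.7%). Joining genes did not rise with the variable segments from DN2 to DN3: the 2 called lower were Trbj1-1 (2.70 CPM in DN3, 9.86 in DN2) and Trbj1-2 (2.61 and 6.71 CPM).

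No segment was called between D/AAA and +/D sorted cells by edgeR or DESeq2. The counts by edgeR were 0 of 19 tested segments in DN1 (0% of all genes were), 0 of 22 in DN3 (0%), 0 of 22 in DN4 (0.0081%) and 0 of 22 in DP (0.00803%). At an unadjusted p under 0.05 the numbers were 0, 1, 1 and 0, and DESeq2 called 0 in each. On simulated counts edgeR recovered 4-fold changes at 70% in DN1, 93% in DN3, 90% in DN4 and 95% in DP. It recovered 2-fold changes at only 3%, 5%, 5% and 23%, so differences of that size could be missed. The D/AAA minus +/D difference in leading share was -0.69 points in DN1 (exact permutation test, adjusted p = 0.807), -1.68 in DN3 (adjusted p = 0.454), -0.66 in DN4 (adjusted p = 0.454) and 5.49 in DP (adjusted p = 0.645). Among libraries with the lower library numbers, which hold all +/D libraries, these differences were -0.60, -0.96, -0.47 and 12.4 points. The 1 D/AAA DN2 library was led by Trbv13-2 at 23.2% and entered no test. The pathway lists had no call in any of these 4 comparisons.

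The spread within D/AAA DP came from 2 libraries. Replicate 1 was led by Trbv15 at 58.4%, with Trbc1 at 62.4% of Trbc counts and the alpha segment Trav14-2 at 38.9% of Trav counts. Replicate 5 was led by Trbv3 at 29.0%, with Trbv2 second at 9.22%. The other 9 D/AAA DP libraries had leading shares of 9.70% to 11.96%, inside the +/D DP range of 9.25% to 13.7%. Without these 2 the difference between genotypes in DP was -0.49 points.

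Early tumours sorted as DP ranged from a library like normal DP to one of nearly a single segment. Replicate 1 was led by Trbv13-2 at 10.96%, replicate 2 by Trbv20 at 33.8% and replicate 3 by Trbv19 at 98.9%. Replicate 4 held Trbv16 at 57.8% with Trbv13-2 at 26.6%, and replicate 5 held Trbv19 at 65.1% with Trbv1 at 23.0%. In 3 of 5 the first 2 segments took at least 80% of the Trbv counts. In replicate 3 Trbj2-1 took 65.8% of the Trbj counts and Trbc1 took 0.0657% of the Trbc counts.

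Their leading share was 53.3% ± 33.2 (SD, n = 5) against 16.8% ± 14.9 (n = 11) in non-tumoral D/AAA DP, a difference of 36.5 points (exact permutation test, p = 0.0119, adjusted p = 0.0536). The groups overlap and the adjusted value missed the threshold. The DP markers summed to a median of 3879 CPM in the early DP tumours (2196 to 10036) and 7300 CPM in D/AAA DP (3799 to 10007), where replicates 1 and 5 were lowest, at 3799 and 5529 CPM. Gamma delta T cell markers had medians of 359 and 75.2 CPM, and the part of either list in the shares was not tested. The 2 D/AAA DP libraries that stand apart had the highest leading shares of their group, and early tumour replicate 1 the lowest of its group. Without those 2 the difference was 42.5 points (exact permutation test, adjusted p = 0.018), and without early tumour replicate 1 it was 47.1 points (adjusted p = 0.0198). Leaving out libraries by the tested value can only widen the difference, so these 2 results lend it no support. Among the higher library numbers alone it was 42.3 points (adjusted p = 0.0779). The summed Trbv level differed by -0.13 on the log2 scale. By edgeR 0 of 22 tested segments were called (0% of all genes were), with 2 at an unadjusted p under 0.05, and DESeq2 called 1, among 791 of 12245 genes. Without early tumour replicate 1 edgeR called 13, in a fit that called 1549 of 12560 genes, and without replicate 2, 3, 4 or 5 it called 0. Trbv19, which led 2 of the 5, had a log2 fold change of 2.14 ± 0.58 (adjusted p = 0.0879).

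The 7 early tumours without a stage label did not have the marker levels of whole thymus. Their DP markers summed to 11.9 to 213 CPM in 5 libraries and to 677 and 578 CPM in replicates 2 and 3, against 3341 to 4172 CPM in +/D whole thymus, which was normalised in a separate table. In 4 of the 7 the shares were like those of DN1, with Trbv13-2 at 34.0%, 36.2%, 36.5% and 37.2%. Replicate 2 was led by Trbv12-2 at 13.6%, replicate 3 by Trbv5 at 14.8% and replicate 5 by Trbv19 at 51.4%, with Trbj2-1 at 43.1% of Trbj counts. The 4 and replicate 5 carried NK and NKT markers at 2526 to 5914 CPM and early progenitor markers at 659 to 952 CPM. In D/AAA DN1 these lists had medians of 4660 CPM (523 to 5253) and 640 CPM (123 to 928). The NK and NKT sums were lower in the remaining pair, 74.9 in replicate 2 and 146 in replicate 3. The DN2 and DN3 markers summed to 1286 CPM in replicate 2, and red cell globins to 23128 CPM in replicate 3. The part of these cells in the shares was not tested. Against D/AAA DN1 (36.2% ± 2.45, n = 8) the leading share differed by -4.22 points (exact permutation test, adjusted p = 0.454), and by -3.95 points among the higher library numbers. By edgeR 0 of 18 tested segments were called (0.00862% of all genes were), with 6 at an unadjusted p under 0.05 and 1 by DESeq2.

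In whole thymus of +/D mice Trbv13-2 led all 6 libraries, with 18.2% to 28.6% and a mean of 24.3% ± 3.59 (SD). Trbv12-2 followed at 9.30% ± 0.70, then Trbv16 at 7.46%, Trbv13-1 at 6.20% and Trbv1 at 5.71%. Per transcript base Trbv13-2 took 27.2% ± 3.86 and Trbv12-2 9.19%.

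In D/AAA thymus Trbv13-2 led 6 of 9 libraries, at 21.8% to 27.6%, and another segment led 3. Among the 6, replicate 5 held Trbv20 second at 16.2%, where the 6 +/D thymus libraries held Trbv20 at 0.739% to 1.73%. Replicate 3 was led by Trbv16 at 41.6% (Trbj1-3 at 42.5% of Trbj counts, Trbc1 at 47.5% of Trbc counts). Replicate 7 was led by Trbv3 at 56.9% (Trbj2-2 at 60.4%, Trbc1 at 0.111%), and replicate 8 by Trbv12-1 at 22.8% (Trbj2-4 at 24.0%). The 2 highest leading shares lie above every +/D thymus library, and the rest lie within that range. The mean was 30.1% ± 11.6 (n = 9), 5.83 points above +/D (exact permutation test, adjusted p = 0.454), and 0.375 points above it without replicates 3 and 7. By edgeR 0 of 20 tested segments were called (0% of all genes were), with 1 at an unadjusted p under 0.05 and 0 by DESeq2.

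The summed Trbv level was lower in D/AAA thymus. It was 568.5 to 626 CPM in +/D (mean 599 ± 22.9, n = 6) and 371 to 608 CPM in D/AAA (511 ± 75.9, n = 9), a log2 difference of -0.24 (exact permutation test, p = 0.00959, adjusted p = 0.0247). The groups overlap, and the call was lost with relative log expression factors (-0.23, adjusted p = 0.0606) and without replicates 3 and 7 (-0.25, adjusted p = 0.0659). The summed DP markers had medians of 3738 CPM in +/D (3341 to 4172) and 2470 in D/AAA (663 to 4132), and their part in the result was not tested.

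Of the MYCChr6 thymus libraries, both +/D libraries were led by Trbv13-2, at 28.1% and 28.7%. Of the 3 D/AAA ones, replicate 1 was led by Trbv12-1 at 64.0% (Trbj2-1 at 49.6%, Trbc1 at 6.21%) and replicates 2 and 3 by Trbv13-2 at 23.4% and 24.0%.

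**Figure D4:**
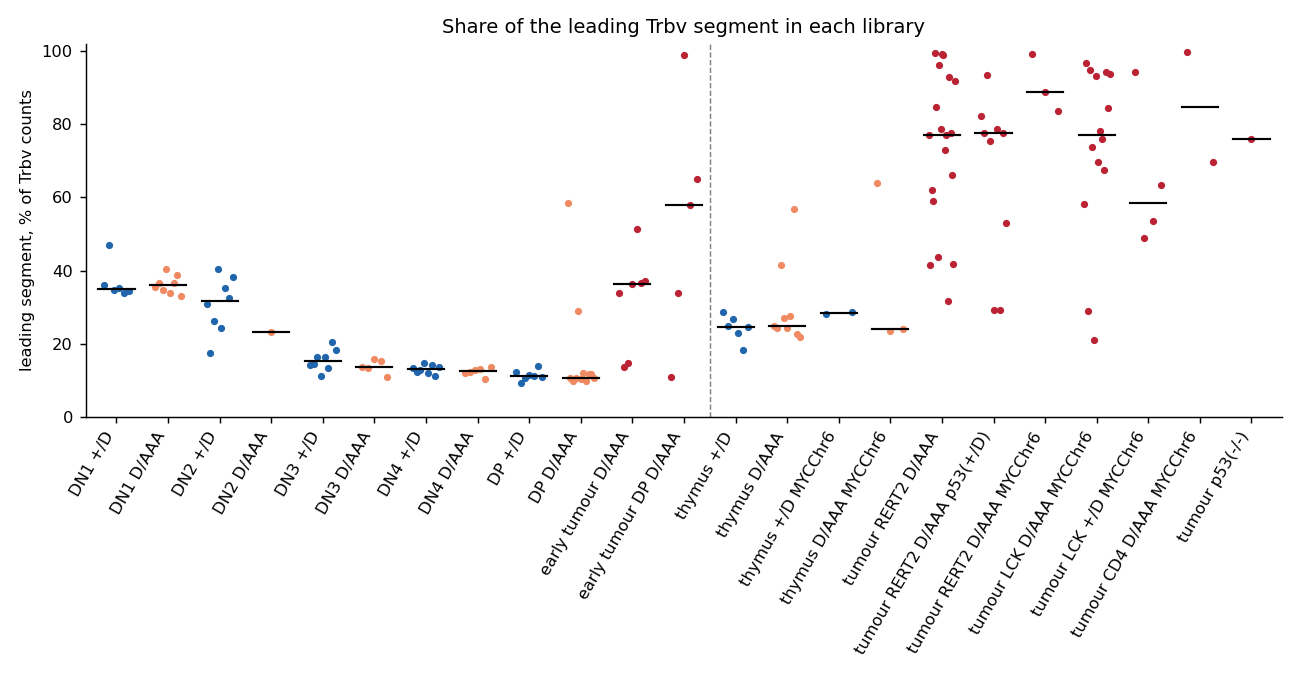
Share of the leading Trbv segment (% of Trbv counts) in each library by group, with points for libraries and bars for medians. RERT2 D/AAA tumours span 31.7% to 99.5%, above the 18.2% to 28.6% of +/D thymus, and 3 D/AAA thymus and MYCChr6 thymus libraries stand above the rest of their groups.

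Most later tumours were carried by 1 segment, and which segment it was differed from tumour to tumour. In the 52 tumours used, the leading share ran from 20.9% over a median of 77.3% to 99.8%. It was at least 50% in 43 tumours and at least 90% in 15, and the first 2 segments together took at least 80% in 44. All 52 leaders were functional segments, 17 different ones. Trbv13-2 led 9 tumours, Trbv4 and Trbv16 led 6 each, Trbv13-1 led 4, and Trbv1, Trbv5, Trbv13-3, Trbv19 and Trbv29 led 3 each. Trbv2, Trbv12-2, Trbv15 and Trbv31 led 2 each, and Trbv3, Trbv12-1, Trbv20 and Trbv26 led 1 each. Trbv13-2 was the second segment in 17 further tumours.

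In RERT2 D/AAA tumours the leading share ran from 31.7% over a median of 77.0% to 99.5% (mean 73.3% ± 21.7, n = 19). No tumour overlapped the 6 +/D thymus libraries, and the difference of 49.0 points had p = 1.13e-05, the smallest that this exact permutation test can give (adjusted p = 0.000156). Against D/AAA thymus the difference was 43.2 points (exact permutation test, p = 1.74e-05, adjusted p = 0.000156), with overlap at D/AAA thymus replicates 3 and 7. The 2 comparisons share the tumours. Replicate 5 was the most concentrated, with Trbv12-2 at 99.5% and Trbj2-4 at 87.6% of Trbj counts. Replicate 10 held Trbv2 at 99.2%, replicate 12 held Trbv13-1 at 99.0%, and replicate 8 held Trbv29 at 96.4% with Trbj2-1 at 95.6%.

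In 9 tumours no segment reached 50%. RERT2 D/AAA replicate 2 held Trbv13-2 at 41.6% and Trbv20 at 32.3%, replicate 7 held Trbv13-3 at 43.7% and Trbv13-2 at 41.2%, and replicate 19 held Trbv13-3 at 41.9% and Trbv19 at 32.9%. Each of these 3 thus had a pair of segments of like size. LCK +/D;MYCChr6 replicate 2 held Trbv13-3 at 48.8% with Trbv13-2 at 28.1%. The p53(+/D) tumours 6 and 8 held 3 segments each: Trbv13-2 at 29.2%, Trbv5 at 24.9% and Trbv15 at 24.3% in replicate 6, and Trbv13-2 at 29.3%, Trbv16 at 29.0% and Trbv13-1 at 26.8% in replicate 8. LCK D/AAA;MYCChr6 replicate 3 held Trbv5 at 28.9%, Trbv13-1 at 23.1% and Trbv13-2 at 20.2%. LCK D/AAA;MYCChr6 replicate 6 was the least concentrated of all, with Trbv2 at 20.9%, Trbv13-2 at 15.1% and Trbv17 at 9.90%. RERT2 D/AAA replicate 15, with Trbv13-2 at 31.7%, rested on 145 counts.

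The tumour genotypes did not differ in leading share beyond their spread. The mean was 66.3% ± 23.5 (n = 9) in p53(+/D) tumours, 7.03 points below RERT2 D/AAA tumours (exact permutation test, adjusted p = 0.562). It was 90.6% ± 7.99 (n = 3) in RERT2 D/AAA;MYCChr6 tumours, 17.3 points above them (adjusted p = 0.371), led by Trbv12-1 at 99.4%, Trbv29 at 88.8% and Trbv13-1 at 83.7%. In LCK D/AAA;MYCChr6 tumours it was 73.6% ± 23.9 (n = 14), 0.31 points above RERT2 D/AAA tumours (adjusted p = 0.975). In LCK +/D;MYCChr6 tumours it was 65.0% ± 20.5 (n = 4), 8.61 points below the LCK D/AAA;MYCChr6 mean (exact permutation test, adjusted p = 0.615). RERT2 D/AAA;MYCChr6 tumours (83.7% to 99.4%) did not overlap D/AAA;MYCChr6 thymus (23.4% to 64.0%), a difference of 53.5 points, and 3 against 3 libraries cannot go below the exact permutation p of 0.1 found. The 2 CD4-Cdc20(D/AAA);MYCChr6 tumours were led by Trbv19 at 99.8% and Trbv1 at 69.7%, and the p53(-/-) tumour by Trbv26 at 75.9%.

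The summed Trbv level was lower and more spread in RERT2 D/AAA tumours than in thymus. In these tumours it ran from 2.62 over a median of 319 to 682 CPM (mean 289 ± 201, n = 22). The log2 difference was -1.91 against +/D thymus (exact permutation test, adjusted p = 0.0015) and -1.66 against D/AAA thymus (adjusted p = 0.004). Replicates 21 and 22 had 19 and 15 Trbv counts, and 0.19 and 0.14 Trbv counts per 100 Trbc counts. The means were 329 CPM ± 231 in p53(+/D), 187 ± 96.5 in RERT2 D/AAA;MYCChr6, 247 ± 184 in LCK D/AAA;MYCChr6 and 315 ± 187 in LCK +/D;MYCChr6 tumours, and no comparison between tumour genotypes passed. The summed DP markers had a median of 1075 CPM in RERT2 D/AAA tumours, against 3738 in +/D thymus, and their part in the level was not tested.

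Against +/D thymus, 7 of 20 tested segments were called lower in RERT2 D/AAA tumours and 0 higher, where 19.1% of all genes were called lower. The median log2 fold change was -1.45 over the tested segments and 0.05 over all genes. Trbv1 ran from 28.1 to 39.2 CPM in +/D thymus and was at 0 in 19 of 22 tumours, with at most 1.58 CPM in the others (log2 -8.07 ± 0.57, adjusted p = 4.5e-12). The others called were Trbv12-1, Trbv26, Trbv17, Trbv23, Trbv14 and Trbv15, between -6.96 and -3.28. None of these 7 led one of the 19 RERT2 D/AAA tumours with at least 100 Trbv counts, and Trbv23 led replicate 21, with 8 of 19 counts. Trbv13-2 ran from 0 (3 tumours) over 21.7 to 422 CPM, and Trbv12-2 from 0 over 10.8 to 679 CPM. These 2, which lead tumours, were not called by edgeR. Calls and leading shares come from the same counts, so this is not a separate result. DESeq2 called 15 segments and 5446 of 12381 genes. Against D/AAA thymus 4 of 16 tested segments were called lower (16.8% of all genes were): Trbv17, Trbv14, Trbv3 and Trbv15. DESeq2 called 10 segments and 4431 of 11634 genes.

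Between tumour genotypes few segments could be tested. By edgeR 0 of 4 tested segments were called between p53(+/D) and RERT2 D/AAA tumours (1.29% of all genes were; 0 at an unadjusted p under 0.05 and 0 by DESeq2). For RERT2 D/AAA;MYCChr6 against RERT2 D/AAA tumours it was 0 of 12 (9.23% of all genes were; 2 unadjusted, 3 by DESeq2). For LCK D/AAA;MYCChr6 against LCK +/D;MYCChr6 it was 0 of 10 (0% of all genes were; 2 unadjusted, 0 by DESeq2). Between LCK D/AAA;MYCChr6 and RERT2 D/AAA tumours 2 of 4 were called (35.3% of all genes were): Trbv15 higher (2.85 ± 1.07, adjusted p = 0.0354) and Trbv13-2 lower (-2.88 ± 1.09, adjusted p = 0.0366). Trbv15 turned to -0.83 with DESeq2. Neither was called without LCK D/AAA;MYCChr6 replicate 12, led by Trbv15, and Trbv15 then had -1.38. Between RERT2 D/AAA;MYCChr6 tumours and D/AAA;MYCChr6 thymus 8 of 18 were called lower (1.25% of all genes were), with 14 by DESeq2, which called 1061 of 11105 genes, and 0 without any 1 of the 3 thymus libraries.

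The pathway lists in RERT2 D/AAA tumours against +/D thymus held 4 of 6 receptor genes lower (Cd3d, Cd3e, Cd3g and Cd247, the signalling chains) and 0 higher. Over all genes 19.1% were called lower. Of 10 recombination genes 5 were called lower and 2 higher, where 22.4% of all genes were called higher. Rag1 was at 831 CPM ± 117 in +/D thymus and 116 ± 61.9 in tumours (log2 -2.85 ± 0.44), and Rag2 at 101.6 ± 27.7 and 11.4 ± 9.70. Of 18 beta constant, diversity and joining genes 11 were tested, of which 1 was called lower, Trbj2-7, and 0 higher.

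The joining genes of many libraries were also concentrated, and the cluster of the leading joining gene went with the Trbc1 share. Of the thymus, tumour and sorted early tumour libraries with at least 20 Trbj counts, 34 had 1 Trbj gene at 50% or more of the Trbj counts. In 6 of them that gene was of the first cluster, upstream of Trbc1, and Trbc1 took 48.3% over a median of 61.8% to 69.1% of the Trbc counts. In the other 28 it was of the second cluster, which lies beyond Trbc1, and Trbc1 took 0% over 0.337% to 45.5%, under 1% in 15 of them. Over the 52 later tumours the Trbc1 share was below the +/D thymus range of 30.8% to 37.0% in 34, above it in 17 and within it in 1. A joint to the second cluster is known to delete Trbc1 from that chromosome. The leading alpha segment took 4.82% over a median of 21.2% to 96.2% of the Trav counts in these tumours and at least 50% in 12, against 3.55% to 4.40% in +/D thymus. Sorted +/D cells of the earlier run had medians of 61.9% in DN1, 24.1% in DN2, 21.3% in DN3, 8.91% in DN4 and 2.89% in DP. Leading alpha shares above the +/D thymus range were thus also found in sorted DN1 to DN4 cells. Those are other cells from another run, and the number of Trav counts behind their shares was not compared.

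The counts that remain beside the leader often lay outside the thymus range in their place along the locus. Joining a V segment on the plus strand is known to remove the segments between it and the D segments and to leave those on its 5′ side. For each library with a leader of at least 50%, leaving out leaders Trbv31 and Trbv1, which has no segment on its 5′ side, the share of the remaining Trbv counts on the 5′ side of the leader was set against the same share in the 6 +/D thymus libraries. Of 33 later tumours with at least 20 remaining counts, 21 lay above that range, 9 below it and 3 within it. Counting error was not allowed for, and few remaining counts can fall outside a narrow range. LCK D/AAA;MYCChr6 replicate 2 lay below it with 0 of 20 counts on the 5′ side. RERT2 D/AAA;MYCChr6 replicate 3 lay above it with 20 of 66, 30.3% where thymus had 23.6% to 27.6%. The 5′ share had a median of 84.7%, pooled over leaders with different thymus ranges, and was at least 90% in 15. These 15 include tumours led by Trbv19, Trbv20, Trbv26 and Trbv29, for which +/D thymus was itself above 90%. RERT2 D/AAA replicate 14, led by Trbv5, had 98 of its 100 remaining counts on the 5′ side where +/D thymus had 14.99% to 17.7%. RERT2 D/AAA replicate 6, led by Trbv13-2, had 99.6% where thymus had 49.5% to 55.2%. Of its 264 remaining counts 247 were of 1 segment, Trbv12-2, the next on the 5′ side. In 8 later tumours led by Trbv13-2, Trbv12-2 had 15.4 to 26.2 counts per 100 Trbv13-2 counts, against 33.0 to 46.9 in +/D thymus. The part of Trbv12-2 in these 5′ shares was not tested. For leaders near the 3′ end the range leaves little room: the 3 tumours led by Trbv29 had 100% where thymus had 99.4% to 99.9%. Others went the opposite way: RERT2 D/AAA replicate 1, led by Trbv4, had 0% where thymus had 10.7% to 14.1%, and LCK D/AAA;MYCChr6 replicate 1, led by Trbv16, had 3.39% where thymus had 81.6% to 85.6%. The measure was chosen after its values were seen and has no test.

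**Figure D5:**
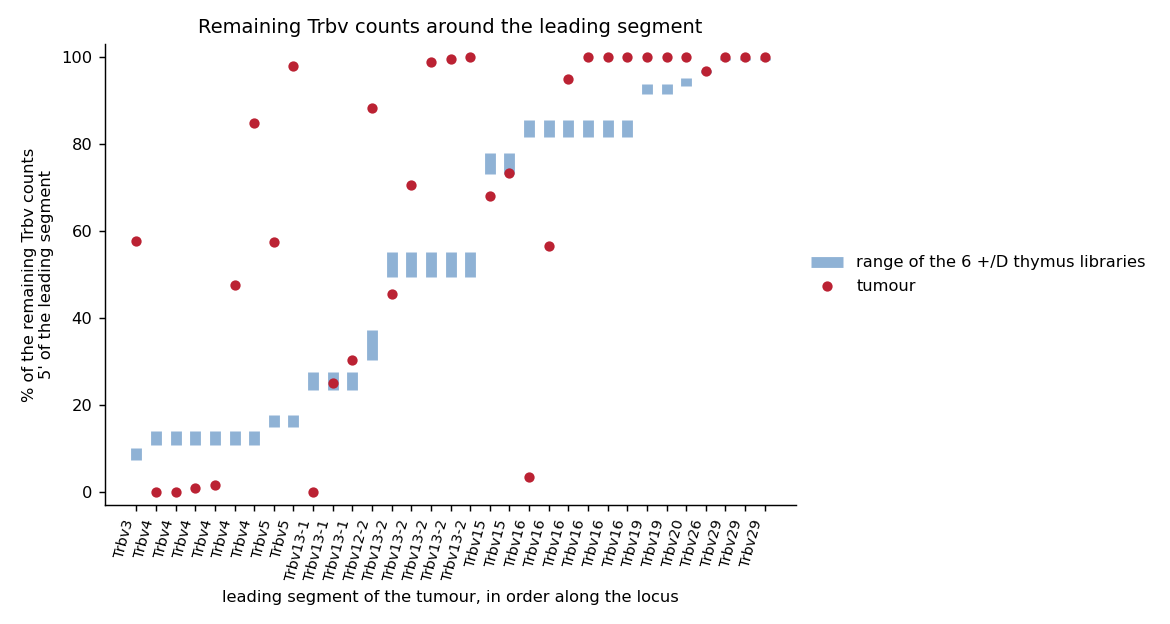
Share of the remaining Trbv counts on the 5′ side of the leading segment (%, vertical axis) in 33 later tumours with a leading share of at least 50% (red points, ordered by the leader's place in the locus), with the range of the 6 +/D thymus libraries for the same leader as blue bars. More tumours lie above the bars (21 of 33) than below them (9), and counting error is not shown.

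LCK +/D;MYCChr6 replicate 1 and LCK D/AAA;MYCChr6 replicate 12 shared their receptor segments although their labels differ in genotype. Trbv15 took 94.4% and 94.3% of their Trbv counts. Their segment shares overlapped by 98.0% for Trbv, 93.2% for Trbj and 81.2% for Trav. Among 990 pairs of libraries with a leading share of at least 50%, the next highest pair had a lowest overlap of 37.3%. Their log2 CPM over 7442 genes had a Pearson correlation of 0.932, the highest of 1540 pairs of later tumours (median 0.744, next 0.919), as a description across genes. Whether they are 1 tumour, or 1 label is wrong, could not be settled from the files. Both are counted in the LCK groups of 14 and 4, so the comparisons of these groups may treat 1 tumour as a sample of each genotype. Without LCK D/AAA;MYCChr6 replicate 12 the LCK D/AAA;MYCChr6 minus LCK +/D;MYCChr6 difference in leading share was 7.02 points, without LCK +/D;MYCChr6 replicate 1 it was 18.4 points (exact permutation test, adjusted p = 0.413). Without replicate 12 the difference from RERT2 D/AAA tumours was -1.28 points.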

How the data were processed

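The authors deposited 2 tables of expected counts per gene from RSEM, all of them whole. Per the submitters' processing notes the tools were FastQC, STAR 2.5.3a and RSEM 1.3.0 on GRCm38. For the release of the annotation and the strand setting, a value was not given in the sources used here. GENCODE M21, perhaps another release than the authors used, gave names, positions and transcripts, and 50376 of 50686 IDs matched a symbol. 0 columns lacked a sample.

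Groups followed the labels, and the members, lists and tests were chosen with earlier results of these data known. Leading shares and log2 summed CPM (trimmed-mean scaling, pseudocount 1) were compared by exact 2-sided permutation tests, adjusted by Benjamini-Hochberg over 18 comparisons. Segments were tested with edgeR 4.0.16 quasi-likelihood fits (robust, filterByExpr) in R 4.3.3 on the whole table, adjusted over all genes tested, at a threshold of 0.05. The SE was taken as log2 fold change over root F. Python 3.11.15 was used for shares. The text names segments that lead a library, the 5 with the largest mean share in +/D DN3, DN4, DP and thymus, and those called between genotypes; other segments named were chosen after their values were seen. Genes of the pathway came from 3 lists.

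On simulated counts, 4-fold changes were recovered at 92% for DN2 against DN1, 86% for RERT2 D/AAA tumours against +/D thymus and 89% for D/AAA against +/D thymus, but at 17% for the LCK pair of groups, 9% for MYCChr6 against other RERT2 D/AAA tumours and 5% for MYCChr6 tumours against thymus. Alternatives were DESeq2 1.42.0, other scaling, no count filter, other minimum Trbv counts, functional segments alone, Simpson concentration, library-number subsets and left-out libraries, and, added after seeing the data, counts per base, the LCK D/AAA;MYCChr6 tumours without replicate 12 and D/AAA thymus without replicates 3 and 7.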

Additional observations from a re-analysis of the deposited data

Results flagged for a closer look

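DN1 +/D replicate 2 stood apart from the other 5 libraries of its group, with Trbv13-2 at 47.0% of the Trbv counts against 34.0% to 36.1% in the others. It was the 1 such library found among 28 groups of values tested, and chance flags about 1 in 20.

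Of the libraries that entered no comparison, 4 had a leading share above the highest +/D thymus library (28.6%). These were +/D;MYCChr6 thymus replicate 2 at 28.7%, CD4-Cdc20(D/AAA);MYCChr6 tumour replicate 1 at 99.8% and replicate 2 at 69.7%, and the p53(-/-) tumour at 75.9%.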

How the results depend on the processing

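Of 126 alternative values of the leading share 119 kept their direction and side of the threshold, as did 83 of 90 for the summed level, 70 of 89 for the number of called segments and 273 of 317 for single segments (42 lost their call). The early DP tumour difference became a call with Simpson concentration (32.4 points) and without D/AAA DP replicates 1 and 5 (42.5). Those 2 libraries had the highest leading shares of their group, so the latter call lends no support. The difference spanned 25.2 to 47.1 points when 1 early tumour was left out. Reversed leading-share differences were LCK D/AAA;MYCChr6 against RERT2 D/AAA tumours at a minimum of 500 Trbv counts (-2.27) and without replicate 12 (-1.28), D/AAA DN4 with Simpson concentration (0.14) and D/AAA DP without replicates 1 and 5 (-0.49). For the log2 summed level, D/AAA thymus lost its call with relative log expression factors (-0.23) and without replicates 3 and 7 (-0.25), and MYCChr6 against other RERT2 D/AAA tumours reversed with plain totals (-0.077) and spanned -0.28 to 0.52 with 1 library left out. D/AAA DN1 reversed without replicate 8 (-0.047), the library of 21199 counts, D/AAA DN3 spanned -0.022 to 0.16 and early DP tumours -0.36 to 0.0049. Called segments numbered 1 with DESeq2 and 1 without D/AAA DP replicates 1 and 5 for early DP tumours, with 0 to 13 when 1 was left out, and 1 with DESeq2 for early tumours without a stage label. For RERT2 D/AAA tumours they were 10 (DESeq2) and 11 (no filter) against D/AAA thymus and 15 (DESeq2) against +/D thymus. They were 2 without a filter for p53(+/D), 3 (DESeq2) and 1 (no filter) for MYCChr6 against other tumours, 7 (no filter) and 0 (without replicate 12) for LCK against RERT2, and 14 (DESeq2), 14 (no filter) and 0 to 7 (1 library left out) for MYCChr6 tumours against thymus. Trbv15 between LCK and RERT2 tumours reversed with DESeq2 (-0.83) and without replicate 12 (-1.38). Except where fewer libraries or genes entered, the cause was not tested. Depth limits tumours with few Trbv counts most. No paired analysis was possible because the labels give no replicate numbers.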
